A study of Drosophila melanogaster with 6 samples.

Results

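HP1a RNAi was compared with GFP RNAi in Drosophila S2 cells, a cultured line from embryos that resembles haemocytes, the blood cells of flies. The members are the features, each a gene or a repeat consensus, that the authors' table for this comparison lists with values. There were 535 of them, 489 genes and 46 repeats, among 582 features listed in either table of the series. Of the 6 libraries in the series 4 belong to the comparison, 2 from cells given double-stranded RNA against HP1a and 2 from cells given double-stranded RNA against GFP, a jellyfish protein gene that serves as the control target. The cells of both groups were grown at 25 °C in Schneider medium with 10% serum and received their RNA for 5 days with the transfection reagent DOTAP. Libraries were made from RNA selected with oligo-dT. The labels name no clone and no second target. They also leave unsaid whether replicate libraries were separate cultures, and p-values then measure only the spread between these libraries, which may be technical.

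HP1a is a small chromatin protein with a chromodomain that binds histone H3 methylated at lysine 9 and a chromoshadow domain that binds other HP1a molecules and partner proteins. It coats pericentromeric heterochromatin, telomeres and much of chromosome 4, regions rich in transposable elements, and is known for silencing transposons and for keeping genes placed next to heterochromatin inactive. Genes that naturally lie inside heterochromatin are known to need it for full expression.

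The authors' table held only rows with an adjusted p below 0.05, and the ranks behind those p-values imply that 8287 features were tested. Listed features were therefore 6.46% of those tested, with 4.18% higher and 2.28% lower in HP1a RNAi. Features above that threshold were not analysed here, so total library depth is unknown. The median listed feature held 1391 and 1263 reads in the HP1a RNAi libraries, against 1093 and 745 reads in the GFP RNAi libraries. All values below are normalized counts, which are not corrected for transcript length, and folds are ratios of group means of those values. In bulk RNA a change per cell and a change in the share of cells that express a gene cannot be told apart.

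The targeted gene was Su(var)205, which encodes HP1a (FBgn0003607, chromosome 2L, 8209626 to 8211122, minus strand). It had 12834 and 15705 normalized counts in HP1a RNAi, against 21963 and 25507 in GFP RNAi. Both HP1a RNAi libraries were below both GFP RNAi libraries, in the direction the label gives, and the mean was 60.1% of that in GFP RNAi (adjusted p = 4.99e-05 in the authors' deposited table). By these counts the depletion of the RNA was partial, and the protein was not measured in these libraries. HP1D3csd, a gene for an HP1-type chromoshadow domain protein, was 1.65-fold higher, and Lam, the lamin gene of the nuclear envelope, was 1.23-fold lower. In limma, refitted to the listed rows with each of the 4 libraries left out in turn, the call (adjusted p under 0.05) was lost for Lam in all 4 fits (adjusted p from 0.0598 to 0.149) and for HP1D3csd in 1. Such fits have fewer libraries, so a lost call does not show that a row rests on a single library. Su(var)205, HP1D3csd and Lam were the 3 listed members among 32 annotated genes for heterochromatin proteins. That is 9.38% of annotated genes, tested by the authors or not, against 6.46% of all tested features.

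More features were higher than lower in HP1a RNAi. Of the 535 features 346 were higher (64.7%) and 189 lower, and the higher ones had a median fold of 1.65, against a median of 1.39-fold lower among the others. A change of at least 2-fold was found for 109 higher and 35 lower features, and 18 features were at least 5-fold higher. In all 535 rows the HP1a RNAi libraries both lay on the same side of the GFP RNAi libraries, in a table selected by p-value on these libraries. In 85 rows the nearest libraries of the groups were more than 2-fold apart. Among the 189 lower features, 58 had a larger fold than Su(var)205 itself.

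**Figure D1:**
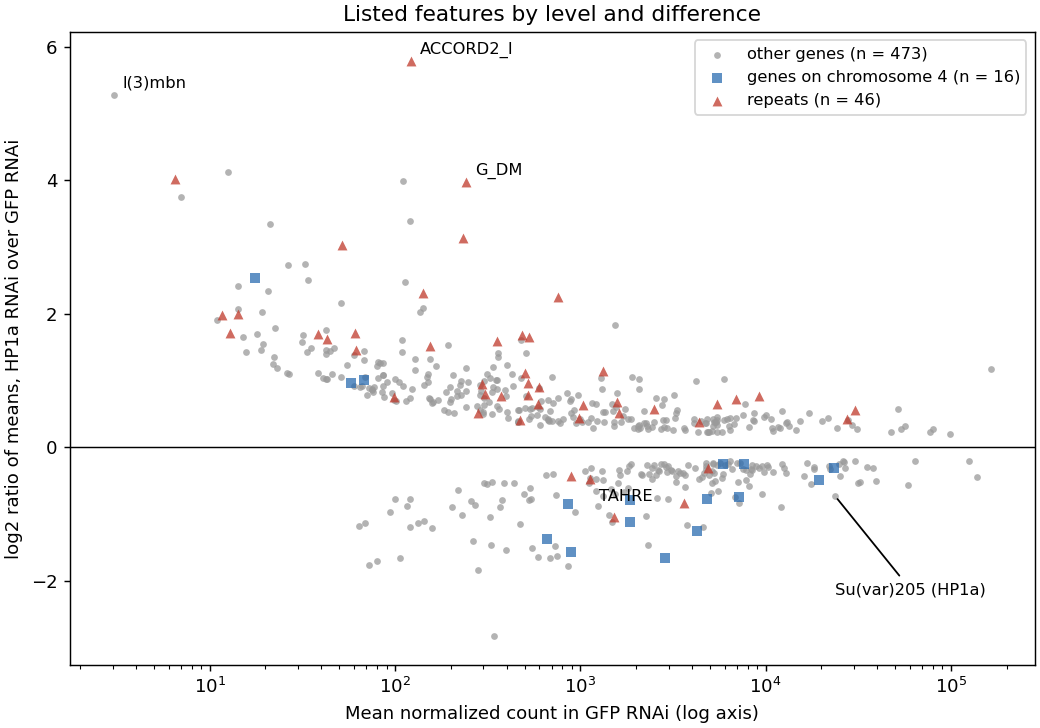
Mean normalized count in GFP RNAi (x, log axis) against the log2 ratio of means, HP1a RNAi over GFP RNAi (y), for the 535 listed features, with repeats as red triangles, chromosome 4 genes as blue squares and other genes as grey circles. Most repeats lie above 0, most chromosome 4 genes below 0, and low features are mostly above 0.

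Direction went with expression level among the listed genes. Of 73 genes with a GFP RNAi mean of 10 to 100 normalized counts, 68 were higher and 5 lower. Of 161 genes between 100 and 1000, 117 were higher and 44 lower. Between 1000 and 10000 there were 91 higher and 103 lower genes, and above 10000 there were 27 higher and 32 lower. The higher genes had a median fold of 2.38 in the 10 to 100 range, 1.67 in the next, 1.32 in the next and 1.25 in the highest. Only genes that passed the authors' test are in these counts, so they do not give how many genes of each level moved in all. The GFP RNAi mean that sets the ranges is also the denominator of the folds, and a low gene needs a larger fold to pass. The split of directions and the folds by level cannot be separated from that selection.

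Most listed repeats were higher in HP1a RNAi. Higher levels were found for 41 repeat rows and lower levels for 5, with a median log2 ratio of 0.85 against 0.38 for the listed genes. Their summed level was 179982 and 172601 normalized counts in HP1a RNAi, against 107348 and 118165 in GFP RNAi, or 1.56-fold higher. The sources used here do not say how reads that match several copies were counted, and related repeats may share reads. The 46 rows stand for 39 families of LTR retrotransposons, non-LTR retrotransposons, a DNA transposon and a satellite.

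LTR retrotransposons, which move through an RNA copy and are flanked by long terminal repeats, made up 28 of the repeat rows, 26 higher and 2 lower. The internal part of accord2 (ACCORD2_I) had 7640.5 and 5843 normalized counts in HP1a RNAi, against 99.2 and 145 in GFP RNAi. This 55.2-fold difference was the largest of all listed features, and the nearest libraries of the groups were 40.3-fold apart. The terminal repeat of the same element (ACCORD2_LTR) had 102 and 110.4 normalized counts in HP1a RNAi, against 7.49 and 5.57 in GFP RNAi. Its 16.2-fold ratio rests on only 8 and 4 reads in the GFP RNAi libraries, and the scaled ratio of reads had a 95% exact interval from 8.84 to 30.9, which covers counting error only. GYPSY10_I had 370.2 and 479 normalized counts in HP1a RNAi, against 44.9 and 58.5 in GFP RNAi (8.21-fold). GYPSY8_I had 776 and 642 in HP1a RNAi, against 153 and 131 in GFP RNAi (4.99-fold). As in all 535 listed rows, no library of either element overlapped the other group.

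A middle group of 7 LTR rows was at least 3-fold but under 4-fold higher in HP1a RNAi. GYPSY_LTR was 3.93-fold higher, ROVER_DM 3.29-fold, FROGGER_I 3.26-fold, GYPSY12_LTR 3.15-fold and GYPSY7_I 3.0-fold. The internal part of Quasimodo2 was 3.20-fold higher and its terminal repeat 3.24-fold. GYPSY_LTR was the least even of these, with 36.3 and 55.2 normalized counts in HP1a RNAi, against 6.55 and 16.7 in GFP RNAi. The other 15 higher rows ran from 1.30-fold (BLASTOPIA_I) to 2.20-fold (INVADER3_I). The abundant BATUMI_I was among them, with 46159 and 43183 normalized counts in HP1a RNAi, against 29065 and 31820.3 in GFP RNAi. With single libraries left out the limma call was lost for BLASTOPIA_I in 3 of 4 fits, for ACCORD_I and INVADER1_LTR in 2 and for GYPSY5_LTR in 1.

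The internal and terminal parts of an LTR element are separate rows and could be compared for 7 families, and in all 7 they had the same direction. The folds of the parts were nearly equal for Quasimodo2 and farthest apart for accord2 (55.2 internal and 16.2 terminal) and gypsy (1.56 internal and 3.93 terminal). Idefix was the only LTR family that was lower. Its internal part had 1886 and 2178 normalized counts in HP1a RNAi, against 3070.1 and 4156 in GFP RNAi (1.78-fold lower). Its terminal repeat had 723 and 759.5 in HP1a RNAi, against 1245 and 1806 in GFP RNAi (2.06-fold lower).

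Non-LTR retrotransposons, which are copied into the genome directly at a nicked target, made up 14 rows outside the telomeres, 13 higher and 1 lower. G_DM had 3935 and 3649 normalized counts in HP1a RNAi, against 260.1 and 223 in GFP RNAi (15.7-fold). G6_DM had 2132 and 1934 in HP1a RNAi, against 237 and 227 in GFP RNAi (8.76-fold), while the related G5A_DM was 1.69-fold higher. R1_DM, which inserts at a fixed site of the ribosomal RNA genes, had 3709 and 3527 in HP1a RNAi, against 818 and 704 in GFP RNAi (4.76-fold). DMRT1A and DMRT1B, which belong to the same clade as R1, were 2.88-fold and 2.15-fold higher. JOCKEY2 was 3.09-fold higher, FW2_DM 2.75-fold, BS2 1.73-fold, FW 1.71-fold, DOC2_DM 1.60-fold, DMCR1A 1.42-fold and DOC 1.34-fold. IVK_DM was the exception, at 1.35-fold lower. Its limma call was lost in 2 of the 4 fits with a library left out, and that of DOC in 1.

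HETA and TAHRE, non-LTR elements that build the chromosome ends of flies in place of telomerase, were both lower. HETA had 4049.7 and 3824 normalized counts in HP1a RNAi, against 4686 and 5062 in GFP RNAi (1.24-fold lower). TAHRE had 825 and 792 in HP1a RNAi, against 1051 and 1197 in GFP RNAi (1.39-fold lower). With any 1 of the 4 libraries left out HETA no longer passed limma (adjusted p from 0.0541 to 0.133), and TAHRE was lost without HP1a RNAi replicate 2 (adjusted p = 0.0595). Of the 5 lower repeats limma called 3 without HP1a RNAi replicate 1, HP1a RNAi replicate 2 or GFP RNAi replicate 2, and 4 without GFP RNAi replicate 1. The DNA transposon LOOPER1_DM was 3.99-fold higher, with unequal HP1a RNAi libraries of 36.3 and 77.1 normalized counts, against 13.1 and 15.3 in GFP RNAi. The satellite 1.688_repeat was 1.92-fold higher.

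**Figure D2:**
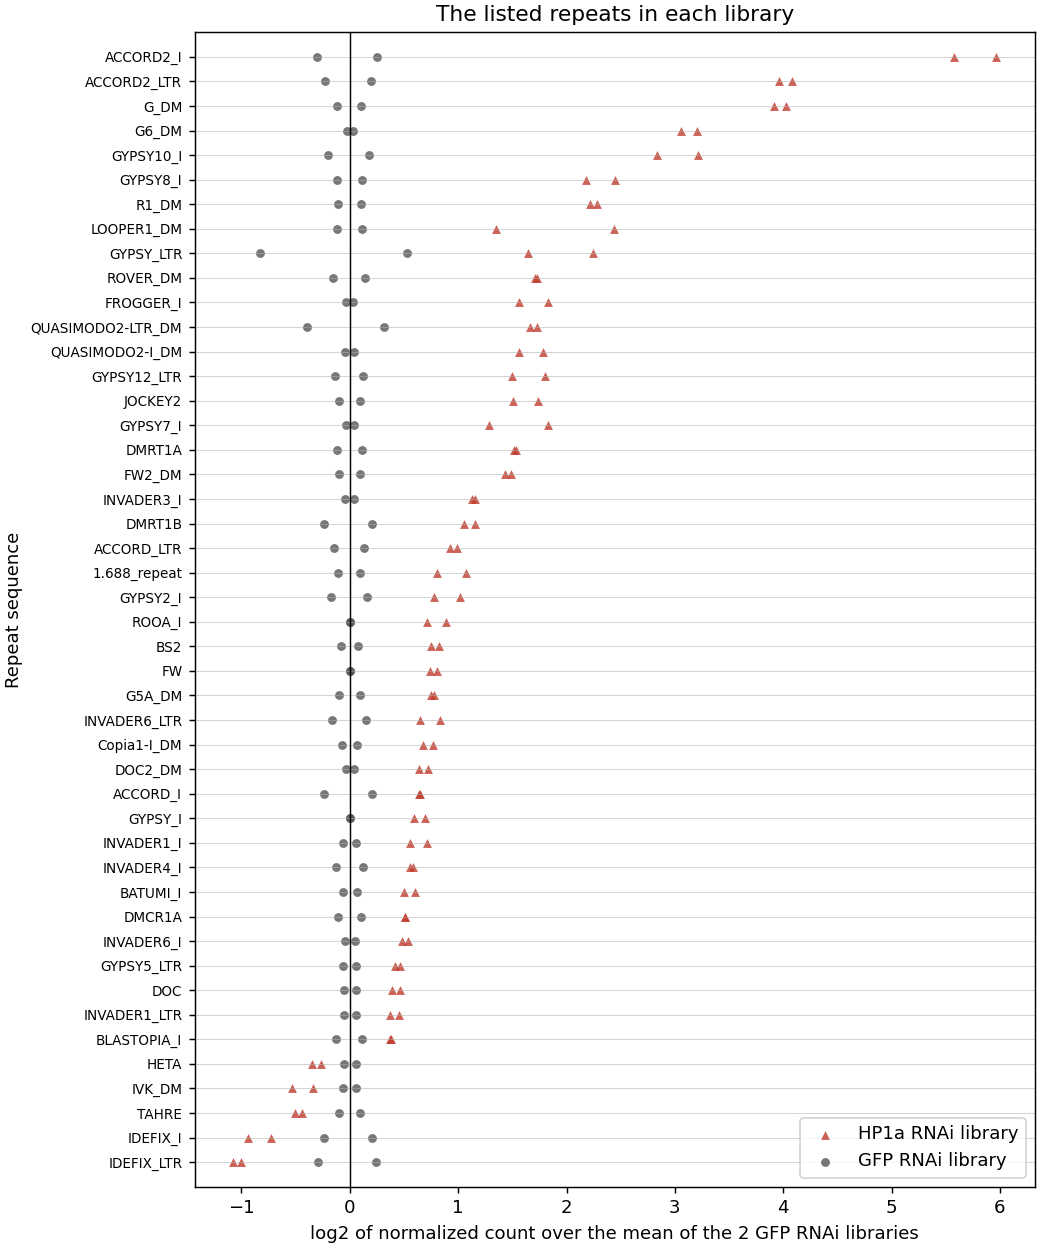
The 46 listed repeats (rows, ordered by ratio) in each library, as log2 of the normalized count over the mean of the 2 GFP RNAi libraries, with HP1a RNAi as red triangles and GFP RNAi as grey circles. As in all 535 listed rows, the HP1a RNAi libraries lie on 1 side of both GFP RNAi libraries, to the right for 41 repeats and to the left for 5.

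The share of annotated copies that lay in heterochromatin varied among the listed repeats, with large and with smaller increases. Heterochromatin is here taken as sequence beyond rounded boundaries at 22 Mb of 2L, 5.4 Mb of 2R, 23 Mb of 3L, 4.2 Mb of 3R and 22 Mb of X. Among the repeats with the largest increases, accord2 had 7 insertions in the BDGP6 annotation, 6 of them beyond a boundary. The element gypsy10 had 8 of 8, gypsy8 50 of 56, G 13 of 17, R1 22 of 31 and G6 7 of 15. Among elements with smaller increases the share varied, from 5 of 33 for invader4 and 22 of 81 for Doc to 96 of 152 for DMCR1A and 5 of 6 for Doc2. Of the lower elements, Idefix had 12 of 20, Ivk 3 of 13 and HeT-A 0 of 27 beyond a boundary. Chromosome 4, much of which HP1a coats, has no boundary here and held 15 of the 27 HeT-A copies. The share of all annotated insertions beyond a boundary was not computed. The copies in the S2 genome need not be the same as those of the reference strain.

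Chromosome 4 was the chromosome with the highest share of listed genes. Of its 80 annotated protein-coding genes 16 were listed (20%), while the long arms had between 3.13% (3R) and 3.58% (2L) of theirs, and none of the 23 protein-coding genes of Y was listed. Of the 16 genes 13 were lower and 3 higher, a median log2 ratio of -0.76 against 0.38 for all listed genes. Limma called all 13 lower genes with the 4 libraries, 8 without HP1a RNAi replicate 1 or without GFP RNAi replicate 2, and 10 without either other library.

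The decreases on chromosome 4 were led by genes for structural, secreted and release proteins. Rfabg, which encodes the precursor of the lipid carrier apolipophorin (FBgn0087002, 1060969 to 1077273), had 822 and 989.9 normalized counts in HP1a RNAi, against 2528 and 3182 in GFP RNAi (3.15-fold lower). bt, which encodes the giant muscle protein projectin (FBgn0005666, 724400 to 776474), had 269 and 331 in HP1a RNAi, against 848 and 932 in GFP RNAi (2.97-fold lower). Cadps, a factor for the release of dense-core vesicles, had 244 and 267 in HP1a RNAi, against 574 and 754 in GFP RNAi (2.60-fold lower). Each of these genes was lower by more than 2-fold even between the nearest libraries of the groups. CG32017 was 2.39-fold lower and unc-13, which primes synaptic vesicles, 1.41-fold lower.

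Signalling genes of chromosome 4 fell by smaller factors. mav, a ligand of the TGF-beta family, was 1.72-fold lower, and fuss, of the Ski and Sno family, 1.73-fold lower. The semaphorin receptor genes PlexB and PlexA were 1.67-fold and 1.24-fold lower, and Ephrin was 1.20-fold lower. The limma call of Ephrin, PlexA and CG31998 (1.19-fold lower) was lost with any 1 library left out, and that of fuss and unc-13 in 2 of the 4 fits.

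The transcription factor genes of chromosome 4 did not move together. Sox102F, of the Sox family, had 838 and 879 normalized counts in HP1a RNAi, against 1876 and 1854 in GFP RNAi (2.17-fold lower). toy and ey are the fly's copies of the eye selector Pax6. toy had 459 and 494 normalized counts in HP1a RNAi, against 896 and 824 in GFP RNAi (1.81-fold lower). ey had 136 and 135 in HP1a RNAi, against 71.1 and 64.1 in GFP RNAi (2.01-fold higher). dati, a zinc finger gene (FBgn0039905, 375640 to 395605), had 89.5 and 113 in HP1a RNAi, against 16.8 and 18.1 in GFP RNAi (5.80-fold higher). The 3 higher genes, ey, dati and CG1909 (1.94-fold), had GFP RNAi means of 67.6, 17.5 and 57.6 normalized counts, and all 13 lower genes had means above 600. Antisense genes overlap dati, and the sources used here do not say whether counting used strand.

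**Figure D3:**
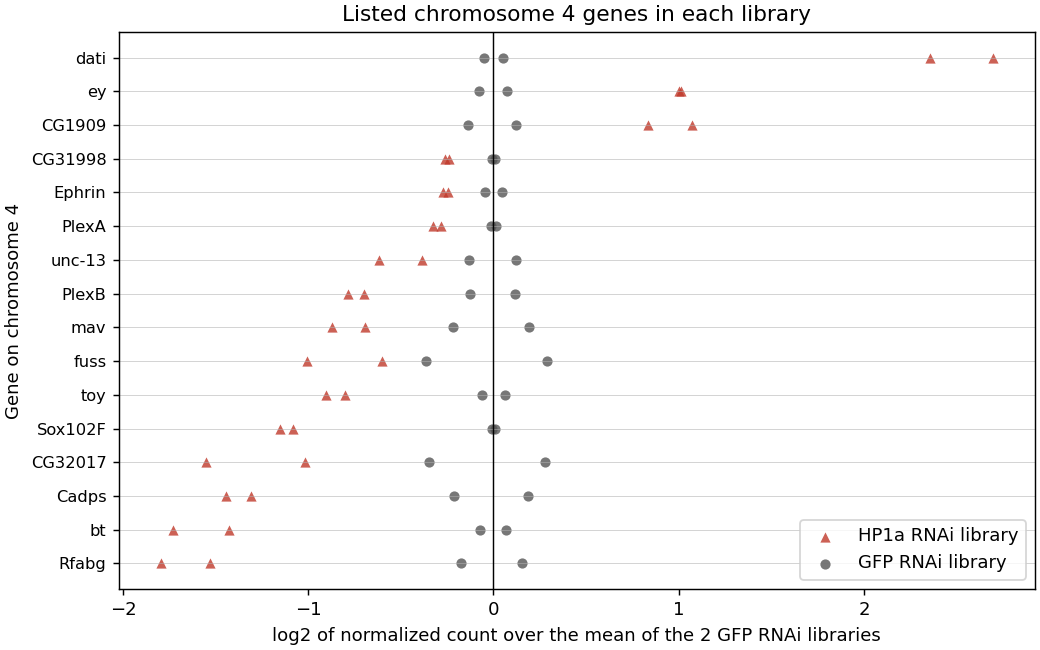
The 16 listed chromosome 4 genes (rows, ordered by ratio) in each library, as log2 of the normalized count over the mean of the 2 GFP RNAi libraries, with HP1a RNAi as red triangles and GFP RNAi as grey circles. dati, ey and CG1909 lie to the right of the GFP RNAi libraries and the other 13 genes to the left.

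Genes beyond the rounded heterochromatin boundaries of the other arms were listed more often than those of the rest of the arms. Of 193 annotated protein-coding genes there 20 were listed (10.4%), against 15 of 476 (3.15%) in the 1 Mb before the boundaries and 420 of 13196 (3.18%) on the rest of the arms. With 4 noncoding genes and pseudogenes there were 24 listed genes, 12 higher and 12 lower. The 12 higher genes had a median fold of 3.32, against 1.57 for the 279 higher genes of the rest of the arms. Level was not matched, and among all listed genes the higher ones of low level had larger folds. The median GFP RNAi mean was 344 normalized counts for the 24 genes, against 1240 for listed genes on the rest of the arms. The 12 higher genes include the 4 noncoding genes and pseudogenes, and CR33987 among them overlaps tio. With the boundaries moved by 0.5 Mb towards the arm there were 16 higher and 19 lower genes, and with 0.5 Mb towards the centromere 4 higher and 6 lower. The number of genes thus changed with the boundary.

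On 2L, higher and lower genes lay interleaved over a short stretch at the boundary. tio, a zinc finger transcription factor gene (FBgn0028979, 22019208 to 22025734), had 245 and 188 normalized counts in HP1a RNAi, against 18.7 and 23.7 in GFP RNAi (10.2-fold higher). The noncoding gene CR33987 starts at the same base on the same strand and was 5.35-fold higher, and the reads of these genes cannot be told apart over the 1047 bases they share. CG41434, the next listed gene, was 3.27-fold lower, with 19.4 and 29.5 normalized counts in HP1a RNAi, against 58.0 and 102 in GFP RNAi. CG31601 after it was 2.03-fold higher. CG10834 and CG6675, which lie 1660 bases apart, were 2.90-fold and 2.78-fold lower. CG3635 (22175415 to 22183991) had 546 and 657 normalized counts in HP1a RNAi, against 131 and 152 in GFP RNAi (4.25-fold higher), and its neighbour Ir40a, an ionotropic receptor gene, was 2.56-fold higher. CG17018, whose current symbol is Marf1 and which encodes an RNA-binding protein and has 44 annotated insertions within it, had 12552 and 11759.6 in HP1a RNAi, against 5590.0 and 6401 in GFP RNAi (2.03-fold higher). Farther in, CG17490, CG17493 and CG40006 were 1.34-fold, 1.41-fold and 2.84-fold lower and Cht3, a chitinase gene, was 1.88-fold higher. Just before the boundary, CG31600 and CG11634, 942 bases apart, were 3.13-fold and 3.16-fold lower.

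The heterochromatic genes of the other arms were fewer. On 2R the adjacent pseudogenes CR40282 and CR41440 were 6.64-fold and 6.68-fold higher and the noncoding gene CR42646 4.07-fold higher. CR41440 had 211 and 228 normalized counts in HP1a RNAi, against 33.7 and 32.1 in GFP RNAi. p120ctn, a catenin gene of adherens junctions, was 1.5-fold lower. On 3L all 3 genes were lower, AGO3 by 1.62-fold, nrm, which encodes a cell adhesion protein, by 1.71-fold, and Vps11, a vesicle sorting gene, by 1.55-fold. On 3R CG12581 was 1.40-fold lower. On X CG14615 and CG42346 were 1.47-fold and 1.49-fold higher and CG40485 was 1.82-fold lower. Of the genes named beyond the boundaries, AGO3, CG17493 and Vps11 lost their limma call in 3 of the 4 fits with a library left out, and CG12581, CG17490 and p120ctn in 2.

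In the 1 Mb before the boundaries 9 listed genes were higher and 7 lower. All 5 of them on 3R were higher, rpk, which encodes a sodium channel subunit, by 2.92-fold, TwdlG, a cuticle gene, by 2.07-fold, CG14642 by 2.02-fold, Mur82C by 1.78-fold and corto by 1.41-fold. rpk was uneven, with 64.5 and 48.5 normalized counts in HP1a RNAi, against 26.2 and 12.5 in GFP RNAi. On 3L Srpk79D, a kinase gene, was 2.39-fold higher, Ten-m, a teneurin gene, 1.52-fold and Aats-ile, a tRNA synthetase gene, 1.32-fold. On 2L dtr was 2.82-fold higher, while CG2201 and the zinc finger gene tsh were 1.33-fold and 1.35-fold lower. On 2R laccase2, scaf and CG30440 were 1.27-fold, 1.67-fold and 3.42-fold lower. With a library left out CG2201 and laccase2 lost their limma call in 3 of 4 fits, Aats-ile in 2 and CG14642 and corto in 1.

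**Figure D4:**
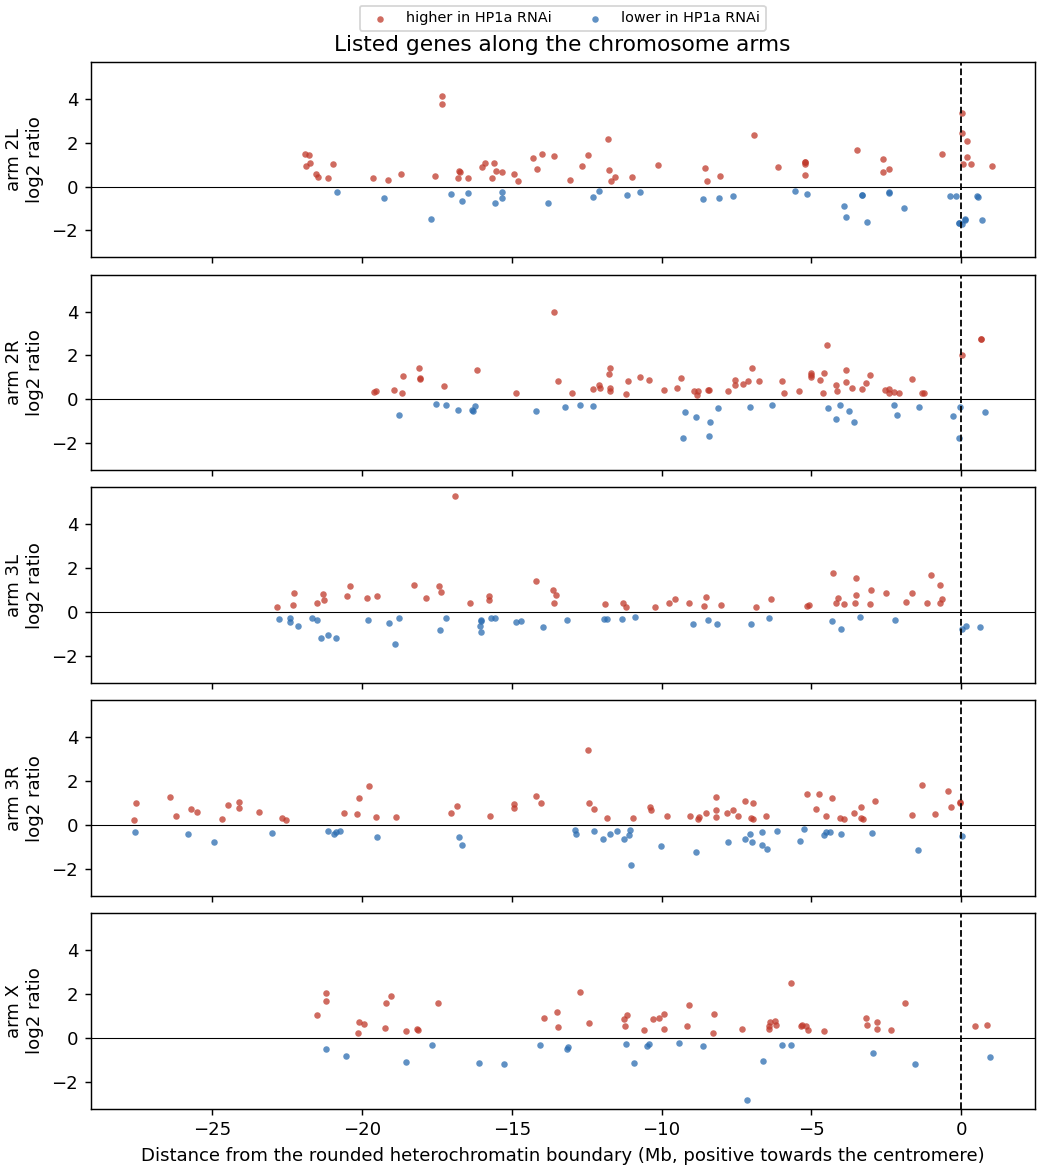
Listed genes of the 5 long chromosome arms by distance from the rounded heterochromatin boundary (x, Mb, positive towards the centromere, dashed line at 0) and log2 ratio of means, HP1a RNAi over GFP RNAi (y), red for higher and blue for lower. Genes of both directions lie along all arms, and 2L has a cluster with large ratios of both signs at the boundary.

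Most listed genes, 431 of 489, lay on the rest of the arms, where 279 were higher and 152 lower. An annotated transposon insertion within the gene was found for 31 of the 279 higher genes (11.1%), for 8 of the 152 lower genes (5.26%) and for 5.43% of all protein-coding genes of those regions. Within 5 kb the shares were 26.9% of the higher genes, 20.4% of the lower genes and 20.9% of all. Gene length and expression level were not matched in these shares.

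The increases outside heterochromatin included genes that were barely detected in GFP RNAi. l(3)mbn (FBgn0002440, chromosome 3L, 6123934 to 6128807) had 104 and 131 normalized counts in HP1a RNAi, against 4.68 and 1.39 in GFP RNAi. These GFP RNAi values stand for 5 reads and 1 read, so that its scaled ratio of reads, 34.7, had a 95% exact interval from 15.7 to 95.4. The log2 fold change of l(3)mbn in the authors' deposited table was 2.87 with a standard error of 0.29. On the log2 scale this lies below that interval. CG11929 had 96.0 and 92.3 normalized counts in HP1a RNAi, against 5.61 and 8.36 in GFP RNAi. The scaled ratio of reads of CG11929 was 14 with an interval from 7.87 to 27.6. Its deposited log2 fold change, 2.41, likewise lies below its interval on the log2 scale. Its neighbour CG3251 on 2L, 1733 bases away, had 225 and 216 in HP1a RNAi, against 16.8 and 8.36 in GFP RNAi (17.5-fold).

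Other large increases began from a clear level in GFP RNAi. CG18605, on 2R, had 1676 and 1837 normalized counts in HP1a RNAi, against 119.8 and 102 in GFP RNAi (15.9-fold). modSP, which encodes a modular serine protease at the start of the cascade that activates the Toll receptor (FBgn0051217, chromosome 3R, 16652446 to 16655662), had 1066 and 1456 in HP1a RNAi, against 110.4 and 129.6 in GFP RNAi (10.5-fold). The lowest HP1a RNAi library of each was more than 8-fold above the highest GFP RNAi library. CG3679 was 5.66-fold higher, CG18446 5.55-fold, CG5731 4.48-fold and CG13358 4.07-fold. CG18446 overlaps peo on the opposite strand and CG3679 overlaps Had1 likewise.

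The decreases were smaller. CG9521 (FBgn0030588, chromosome X, 14851005 to 14853269) had the largest, with 50.8 and 45.7 normalized counts in HP1a RNAi, against 269 and 415 in GFP RNAi (7.10-fold lower). Spn88Eb, a serpin gene, had 79.0 and 77.1 in HP1a RNAi, against 300.4 and 259 in GFP RNAi (3.58-fold lower). mspo, which encodes the secreted matrix protein M-spondin, was 3.40-fold lower, CG6329 3.15-fold, CG33120 3.11-fold and CG14990 2.77-fold. CG30440 (3.42-fold lower) holds 19 annotated transposon insertions. Of the 15 genes with the largest decreases, 2 were on chromosome 4 and 7 lay beyond or within 1 Mb of a boundary. Of the 15 with the largest increases 1 was on chromosome 4 and 5 lay beyond or within 1 Mb of a boundary. Among all 489 listed genes 16 were on chromosome 4, 24 lay beyond a boundary and 16 within 1 Mb before it.

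**Figure D5:**
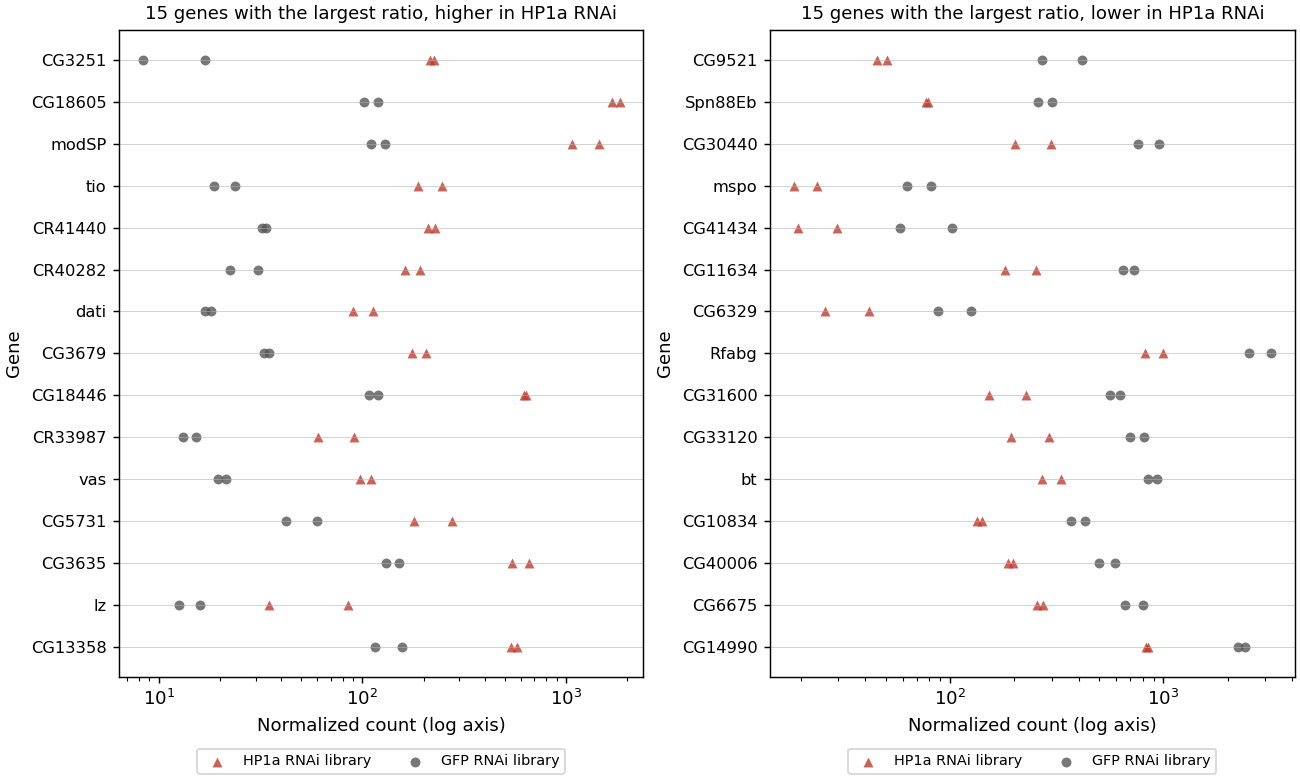
Normalized counts (x, log axis) in each library for the 15 genes with the largest ratio in each direction among genes with a mean of at least 10 normalized counts in both groups, with HP1a RNAi as red triangles and GFP RNAi as grey circles. As in all 535 listed rows, which were selected by p-value, the groups do not overlap for any of these genes. The folds run from 4.07 to 17.5 among the higher genes and from 2.77 to 7.10 among the lower genes.

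In absolute terms the largest difference was in Pxn, which encodes peroxidasin, a peroxidase of the extracellular matrix made by haemocytes. It had 406768 and 334266 normalized counts in HP1a RNAi, against 186823 and 140994 in GFP RNAi (2.26-fold higher). Pxn alone took 12.6% and 10.7% of all counts in the listed rows of the HP1a RNAi libraries, against 6.43% and 4.90% in the GFP RNAi libraries. The 10 genes with the largest absolute differences were Pxn, 5 ribosomal protein genes, which were higher, and 4 genes that were lower. Moe, which encodes moesin, a link between actin and the cell membrane, had 105707 and 97161 in HP1a RNAi, against 138563 and 136624 in GFP RNAi (1.36-fold lower), and lost its limma call in 1 of the 4 fits with a library left out. Atpalpha, the catalytic subunit of the sodium pump, was 1.49-fold lower, and HmgD, a chromosomal protein of the HMG box type, 1.42-fold lower. HmgZ, a similar gene that overlaps HmgD on the opposite strand, was lower as well. Idgf2, a secreted chitinase-like factor, was 1.15-fold lower in the normalized counts but did not pass limma (adjusted p = 0.0632).

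Genes of the piRNA pathway, which silences transposons with small RNAs in the gonads, had 5 of 32 listed (15.6%), 4 higher and 1 lower. For this and the following lists, 6.46% of all tested features were listed, and 64.7% of all listed features were higher. The lists count annotated genes, tested by the authors or not, so their shares and the 6.46% have unlike denominators. Of the annotated protein-coding genes of the long arms, between 3.13% (3R) and 3.58% (2L) were listed. vas, a helicase gene of the germline, had 110.5 and 97.1 normalized counts in HP1a RNAi, against 21.5 and 19.5 in GFP RNAi (5.06-fold higher). solo overlaps vas on the same strand and vig on the other, so the reads of these genes may not be separable. The Argonaute gene aub had 14418 and 14158 in HP1a RNAi, against 10450.1 and 10931 in GFP RNAi (1.34-fold higher). tej, a Tudor domain gene, was 1.32-fold higher and CG12721, now named moon, whose product starts transcription of piRNA clusters, 1.33-fold higher. AGO3, the other Argonaute gene that was listed, had 3034 and 3268 in HP1a RNAi, against 4101 and 6079 in GFP RNAi (1.62-fold lower). Its gene spans 135 kb of 3L heterochromatin with 106 annotated insertions. With a library left out the limma call was lost for AGO3 and tej in 3 of 4 fits (adjusted p up to 0.0958 and 0.0803) and for CG12721 in 2 (up to 0.102), but in none for aub and vas.

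Germline genes had 3 of 27 members listed (11.1%), all higher. Besides vas these were osk, which founds the germ plasm, with 112 and 109 normalized counts in HP1a RNAi, against 44.0 and 40.4 in GFP RNAi (2.63-fold), and zpg, a gap junction gene, at 1.34-fold. The 3 genes summed to 932 and 915 normalized counts in HP1a RNAi, against 590.4 and 592 in GFP RNAi. None of 18 testis genes, 14 neuronal markers or 8 markers of follicle and somatic gonad cells was listed. The single listed muscle marker was bt and the single fat body marker Rfabg, both of chromosome 4 and both lower.

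Haemocyte markers, the cell type S2 cells resemble, had 6 of 25 members listed (24%) and all were higher. Besides Pxn these were drpr, the engulfment receptor Draper, at 1.46-fold, NimB1, of the Nimrod family, at 1.38-fold, PPO2, a prophenoloxidase of crystal cells, at 1.44-fold, lz and l(3)mbn. lz, the Runx factor that directs crystal cell fate, had 34.7 and 84.7 normalized counts in HP1a RNAi, against 15.9 and 12.5 in GFP RNAi, so its HP1a RNAi libraries differed by more than 2-fold. The 5 genes other than Pxn summed to 19320.2 and 21985 in HP1a RNAi, against 14135 and 14093 in GFP RNAi, or 1.46-fold higher. Whether a shift in cell state contributed to other results was not tested.

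Immune genes moved in both directions, with 3 of 6 listed members higher and 3 lower among 38 annotated (15.8% listed). modSP, Tep1, a complement-like opsonin (1.86-fold), and PGRP-LE, a sensor of bacterial peptidoglycan (1.47-fold), were higher. The serpin genes Spn88Eb and Spn27A (1.45-fold), the second an inhibitor of melanization, and the recognition gene GNBP1 (1.30-fold) were lower. With a library left out GNBP1 lost its limma call in 3 of 4 fits, and PGRP-LE and Spn27A in 1.

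Of the listed genes for detoxification enzymes all but 1 were higher. Cytochrome P450 genes had 9 of 87 listed and all 9 were higher, UDP-glycosyltransferases 6 higher and 1 lower of 35, and glutathione transferases 4 higher of 35. In all 20 of 157 annotated genes, tested by the authors or not, were listed (12.7%), 19 of them higher, with a median log2 ratio of 0.71. Cyp4p1 had 898 and 944 normalized counts in HP1a RNAi, against 307 and 415 in GFP RNAi (2.55-fold). Cyp4ad1 was 2.14-fold higher and GstD7 2.43-fold, the second with 140.3 and 250.3 normalized counts in HP1a RNAi, against 89.8 and 71.1 in GFP RNAi. Ugt86Dj was the exception at 1.72-fold lower. With a library left out the limma call was lost for GstE3 and Ugt86Da in all 4 fits and for Cyp28d1, Cyp6d5 and GstD1 in 3. Many of these genes lie in tandem arrays and similar copies may share reads. Stress genes had 4 of 21 listed (19.0%), all higher, with Hsp23 at 2.01-fold, Cat at 1.33-fold, Sod at 1.29-fold and GstD1 at 1.27-fold. The limma call of Sod was lost in 2 of these fits.

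Genes of the kinetochore and mitosis had 6 of 40 members listed (15%), against 6.46% of all tested features. All 6 were lower, by small factors, while 35.3% of all listed features were lower. aurB, the kinase of the chromosomal passenger complex, had 2627 and 2820.2 normalized counts in HP1a RNAi, against 3521 and 3625 in GFP RNAi (1.31-fold lower). Mis12 and Spc105R, of the outer kinetochore network, were both 1.27-fold lower, and Cenp-C, which links the network to the centromere, 1.26-fold lower. The checkpoint gene mad2 was 1.20-fold lower and the kinesin gene cmet 1.17-fold lower. cmet did not pass limma with the replicate block (adjusted p = 0.054), and without single libraries its adjusted p ran from 0.117 to 0.192. None of the 6 kept its limma call in every fit with a library left out. Spc105R, Cenp-C and mad2 lost it in all 4 fits as well (adjusted p up to 0.0929, 0.107 and 0.138), Mis12 in 3 (up to 0.107) and aurB in 2 (up to 0.0708).

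Ribosomal protein genes had 8 of 86 members listed (9.3%), against 6.46% of all tested features. Against 64.7% higher among all listed features, all 8 genes were higher, between 1.15-fold and 1.48-fold. RpL18 led them with 78331 and 74279.9 normalized counts in HP1a RNAi, against 55810.0 and 47312 in GFP RNAi. RpS23 and RpLP2 did not pass limma (adjusted p = 0.069 and 0.0543). RpL10Ab, RpL12, RpS18 and RpS25 were lost with any 1 library left out, and RpS15Ab in 3 of the 4 fits. Proteasome genes had 3 of 48 annotated members listed (6.25%), against 6.46% of all tested features. Rpt6R was 2.40-fold higher, Prosalpha7 1.32-fold lower and Rpt1 1.21-fold lower. Rpt1 lost its limma call in all 4 of these fits (adjusted p up to 0.156) and Prosalpha7 in 3 (up to 0.0631).

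Signalling and adhesion genes moved in both directions. Growth factor signalling had 6 of 38 listed (15.8%). Pvf2, a ligand of the PDGF and VEGF type, was 1.49-fold higher. In contrast mav, the FGF gene pyr (1.18-fold), the EGF gene spi (1.25-fold) and the Notch ligand gene Ser (1.28-fold) were lower. With a library left out the limma call was lost for pyr and spi in all 4 fits (adjusted p up to 0.176 and 0.146) and for Ser in 3 (up to 0.095). Egfr had 182 and 456 normalized counts in HP1a RNAi, against 131 and 125 in GFP RNAi, and did not pass limma (adjusted p = 0.0517), but passed without HP1a RNAi replicate 1 (0.00243) or HP1a RNAi replicate 2 (0.0346). Of 28 genes for the cytoskeleton and adhesion 6 were listed (21.4%). The adhesion genes rst (3.73-fold), Fas1 (1.98-fold) and Nrg (1.39-fold) and the tubulin gene betaTub60D (1.35-fold) were higher, and tutl (2.75-fold) and the matrix protease gene AdamTS-A (1.57-fold) were lower, and AdamTS-A and betaTub60D lost their limma call in 1 of the 4 fits. The gene rst was low, with 37.9 and 43.8 normalized counts in HP1a RNAi, against 9.36 and 12.5 in GFP RNAi, and kirre overlaps it. Fas1 was among the most even, with 8437 and 8190.3 in HP1a RNAi, against 4170.5 and 4230.0 in GFP RNAi.

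Only a few genes of glycolysis, haem synthesis, repair and pigmentation were listed. Pfk, the phosphofructokinase of glycolysis, was 1.84-fold higher and the only listed member of 15 glycolysis and lactate genes (6.67%). Updo and FeCH, of haem synthesis, were 1.55-fold and 1.17-fold higher out of 9 (22.2%), and FeCH lost its limma call with any 1 library left out (adjusted p from 0.125 to 0.191) and with the replicate block (0.0563). Of 25 repair genes 2 were listed (8%), of which the end-joining polymerase gene mus308 was 1.45-fold higher and the damage response gene p53 1.28-fold higher, and p53 lost its limma call in 3 of the 4 fits with a library left out. The pigmentation genes w (2.99-fold), which kirre overlaps on the opposite strand, and e (1.45-fold) were listed out of 15 (13.3%) and were higher. These 7 genes stand beside 64.7% higher among all listed features, and counts this small say nothing about the groups. No gene of the 126 annotated histone genes or of the 38 mitochondrial genome genes was listed. Whether any of them was among the tested features is unknown, and the RNA was selected with oligo-dT.

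Listed genes that lie close together tended to have the same direction. Of 72 pairs of listed neighbours within 10 kb, 51 had the same direction (70.8%), 37 both higher and 14 both lower, while the overall split of directions gives 53%. Within 5 kb it was 72.7% of 55 pairs and within 50 kb 65.5% of 142 pairs. The pairs include overlapping genes and a gene, CG43795, that stands under 2 identifiers. In 12 clusters of 3 or more genes, 7 had a single direction. On 2L from 16788774 to 16801584 Cyt-b5-r (2.06-fold), Ugt36Ba (2.14-fold), Ugt36Bb (2.16-fold) and Ugt36Bc (1.42-fold) were all higher. On 2R Prx2540-1 and Prx2540-2, near-identical peroxiredoxin genes whose reads may be shared, and CG11825 between them were 2.28-fold, 2.05-fold and 2.14-fold higher. On 3R GstD1, GstD7 and GstD9 were higher. A cluster on X was mixed, with CG13358 and CG13359 4.07-fold and 3.20-fold higher and Sec22 1.44-fold lower, and a cluster on 2R had stj and Syngr 1.35-fold higher beside Cpr50Cb (2.02-fold) and CG6329 lower. The limma call of Syngr was lost in 2 of the 4 fits with a library left out, and that of stj in 1.

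The other RNAi treatment of the series shares the GFP RNAi libraries, so only values are set side by side. Its Kdm4A level was 2.86 times that in GFP RNAi, against the direction of its label, dKDM4A RNAi. 43 features were listed in both tables, 8.04% of the 535 and 47.8% of the 90 of the other table. The fold of Pxn was 2.26 in HP1a RNAi and 2.04 in the other treatment. CG14990 was lower by a factor of 2.77 in HP1a RNAi and of 1.42 in the other treatment. HETA and TAHRE were, in both tables, lower, at 1.24-fold and 1.39-fold lower in HP1a RNAi and 1.25-fold and 1.43-fold lower in the libraries with that label.

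Limma on log2(normalized count + 1) was run over the 535 rows, with Benjamini-Hochberg adjustment, to see which calls held with a library left out. Such fits have fewer libraries and lost calls whichever library was dropped. A lost call therefore does not show that a row rests on a single library. With all 4 libraries limma called 342 higher rows (63.9%) and 183 lower rows (34.2%), together 98.1%. This is no independent support because the same libraries had selected the rows. With 2 libraries a group the smallest p of an exact permutation test is 0.333. With HP1a RNAi replicate 2 left out limma called 245 higher and 89 lower rows, and with HP1a RNAi replicate 1 left out 256 and 109. Without GFP RNAi replicate 2 it called 269 and 103, and without GFP RNAi replicate 1 it called 266 and 117. Features at least 2-fold higher or lower kept their call in these 4 fits more often than the 535 rows as a whole. Repeats and chromosome 4 genes did so as well. The same libraries gave the folds and the listing, so this is no independent support either. The libraries within a group differed by more than 2-fold in 10 rows, among them lz, Egfr, l(3)mbn, CG3251, GYPSY_LTR and LOOPER1_DM. Just inside the listing threshold stood spd-2, a centrosome gene, at 1.19-fold lower, and sog, a secreted BMP antagonist, at 1.63-fold higher, the second lost in 3 of these fits, both with an adjusted p of 0.04996 in the authors' deposited table.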

How the data were processed

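RNA of 2 HP1a RNAi and 2 GFP RNAi libraries was measured by polyA-selected RNA-seq, per the labels' protocols. TopHat, Bowtie and DESeq2 are named in the submitters' processing notes without role or version, and the genome build, annotation and counting tool are not given in the sources used here. The authors deposited, per the file headers, normalized counts (a signal scaled per library and per table), log2 fold changes with standard errors, a test statistic (a score) and p-values with adjusted p-values. A row of the table without values was left out. Low values came in even steps, within 0.1 reads of a whole read. These gave size factors of 1.24 and 1.05 for HP1a RNAi and 1.07 and 0.717 for GFP RNAi. The read numbers given above rest on these steps, seen in 73 to 112 low values a library. A count test was not run, as these values were taken as too few and only listed rows were at hand.

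Values were tested as log2(normalized count + 1) over the 535 rows with limma 3.58.1 under R 4.3.3, with a minimum mean of 1 that removed none and Benjamini-Hochberg adjustment. This count of tested features differs from the authors' 8287. The fit was tested on simulated data. Replicates were not duplicates of a single library, since their reads differed by more than sampling noise (chi-square per degree of freedom of 34.7 in HP1a RNAi and 29.0 in GFP RNAi). Own log2 ratios were larger than the deposited log2 fold changes by a median factor of 1.05 and at most 2.05 (lz). Positions equalled the BDGP6 annotation for 458 of 461 genes matched by identifier, and 18 more genes matched by symbol, while 2 had no position. Another annotated gene overlapped 232 of the listed genes. Members and lists were chosen with earlier results of these data known. The genes named were the target, the 15 largest increases and 15 largest decreases by ratio of means with a mean of at least 10 in both groups, the 10 largest absolute differences, genes with a GFP RNAi mean under 10, repeats, chromosome 4 genes, genes beyond or within 1 Mb of the boundaries, clusters of 3 or more neighbours within 10 kb and list members. The genes spd-2 and sog were named for their place at the threshold, and CG43795 for its identifiers. Alternatives were pseudocounts of 0.1 and 5, no filter or a minimum mean of 100, a replicate block, each library left out, stricter listing thresholds, neighbour windows of 5 and 50 kb, and boundaries moved by 0.5 Mb.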

Additional observations from a re-analysis of the deposited data

How the results depend on the processing

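Pseudocounts of 0.1 and 5, no filter and a minimum mean of 100 kept the limma counts of all features and of repeats within 1.5 times, and with the minimum mean of 100 only 1 higher gene of chromosome 4 was left to call. Leaving out 1 library gave 245 to 269 higher and 89 to 117 lower calls over all rows, 37 to 41 higher and 3 to 4 lower repeats, and 3 higher and 8 to 10 lower chromosome 4 genes. In these fits the lone library of a group is assumed to vary like the other group. The same-numbered libraries had a correlation of 0.237 between their deviations from the group means over 2 pairs, so the numbers are not taken to pair the samples. With the replicate block limma called 335 higher and 178 lower rows. Under the block FeCH, Nhe3, RpL10Ab, cmet and msb1l lost their call and Egfr gained it (adjusted p = 0.00896). No named feature changed direction with either pseudocount, the block or a library left out, the settings run for single features. Of 225 named features 221 were called with all 4 libraries, and 151 of these were called in each fit with a library left out. A deposited adjusted p below 0.01 left 232 higher and 112 lower features, and a 2-fold minimum left 109 and 35. Boundaries moved by 0.5 Mb, chosen after seeing the data, gave 16 higher and 19 lower genes towards the arm and 4 and 6 towards the centromere. The cause of these shifts was not tested. The planned edgeR test on recovered reads was not run. Depth limits the low features most, since 3 had GFP RNAi means under 10 normalized counts.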
